A study of Mus musculus with 6 samples.

Results

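The genes described here are the interferon-induced transmembrane genes *Ifitm1*, *Ifitm2*, *Ifitm3* and *Ifitm10*, 4 of the 34745 genes listed in each library of a study of cultured mouse CD8+ T effector cells. They were taken by gene symbol, and all 4 symbols were found in all 6 libraries. The set was chosen by gene family with the difference in counts and FPKM between the genotypes already known, so their fold changes are given as a description, with standard errors and without p-values.

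CD8+ T cells were isolated from the spleens of wild-type (WT) C57BL/6J mice and of *Scd-1*-/- mice of the B6.129-Scd1tm1Ntam/J line, with 3 RNA-seq libraries per genotype. Per the study's methods the mice were male and 6 to 8 weeks old. All cultures received anti-CD3 (5 μg/mL), anti-CD28 (0.5 μg/mL) and IL-2 (100 U/mL) for 3 days, then IL-2 without the antibodies, and were harvested at day 6. *Scd1* encodes stearoyl-CoA desaturase 1, the enzyme that makes monounsaturated from saturated fatty acids, and the comparison asks which transcripts differ in effector cells that lack it. The deletion is carried by every cell of the mouse, so the effector cells, and all the cells they had met in the animal, lacked the gene. The labels name no separate mouse or culture behind each replicate number. The p-values given for other genes therefore measure only the spread between these libraries, which may be technical.

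Interferon-induced transmembrane (IFITM) proteins are small membrane proteins of the CD225 family. IFITM3 sits mainly in endosomes and lysosomes, IFITM1 more at the cell surface, and both are best known for hindering the fusion of enveloped viruses with cell membranes. Interferons induce *Ifitm1*, *Ifitm2* and *Ifitm3* in many cell types, through STAT-containing complexes that bind interferon-stimulated response elements (ISRE) or gamma-activated sites (GAS) near gene starts. IFITM3 is also known to be kept by resident memory CD8+ T cells. *Ifitm10* is a more distant relative whose function is little known.

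Of the members, 3 lie close together on chromosome 7 (positions from GENCODE M21, GRCm38). *Ifitm2* occupies chr7:140954837-140955987 on the minus strand, *Ifitm1* chr7:140967221-140969825 on the plus strand and *Ifitm3* chr7:141009586-141010770 on the minus strand. *Ifitm1* starts 11233 bases from *Ifitm2* and ends 39760 bases before *Ifitm3*. *Ifitm10* lies apart from them, at chr7:142325837-142373753 on the minus strand, 1315066 bases from *Ifitm3*.

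The windows around RefSeq starts of the clustered genes are printed to show matches to sites that interferon-activated factors are known to bind. Each runs from 250 bases before to 50 bases after the start, from RefSeq on GRCm38.p6, written 5′ to 3′ on the gene's strand. *Ifitm1* is chr7:140967826-140968125 (plus strand), *Ifitm2* chr7:140955912-140956211 (minus strand) and *Ifitm3* chr7:141010695-141010994 (minus strand). Capitals mark matches to the ISRE core, searched as GAAANNGAAA on both strands (N is any base).
Ifitm1: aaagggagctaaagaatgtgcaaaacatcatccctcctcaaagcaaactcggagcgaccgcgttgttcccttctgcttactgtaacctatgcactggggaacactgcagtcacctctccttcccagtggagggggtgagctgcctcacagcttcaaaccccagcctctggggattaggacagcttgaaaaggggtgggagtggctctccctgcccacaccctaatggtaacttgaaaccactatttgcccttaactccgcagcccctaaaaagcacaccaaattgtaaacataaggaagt
Ifitm2: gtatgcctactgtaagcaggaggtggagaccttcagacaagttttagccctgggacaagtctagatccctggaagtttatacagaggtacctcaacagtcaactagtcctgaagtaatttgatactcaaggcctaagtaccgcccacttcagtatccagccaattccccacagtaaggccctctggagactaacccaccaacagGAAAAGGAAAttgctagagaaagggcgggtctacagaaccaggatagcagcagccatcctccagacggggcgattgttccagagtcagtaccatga
Ifitm3: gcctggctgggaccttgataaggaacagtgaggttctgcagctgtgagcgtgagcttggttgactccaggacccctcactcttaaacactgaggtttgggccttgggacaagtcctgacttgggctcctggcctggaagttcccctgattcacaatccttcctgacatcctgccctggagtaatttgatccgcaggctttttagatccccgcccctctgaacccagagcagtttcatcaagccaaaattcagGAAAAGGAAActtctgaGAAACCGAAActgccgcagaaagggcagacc

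*Ifitm2* held 1 ISRE core, which began 46 bases before the start, and *Ifitm3* held 2, both after the start. *Ifitm1* and the 3 *Ifitm10* windows held no match to these letters. The *Ifitm1* window lies wholly within the GENCODE gene, so the bases before the GENCODE start were not searched. Whether *Ifitm1* differs from the other clustered genes in such sites is therefore not settled by these windows. The GAS letters TTCNNNGAA, which read the same on both strands, matched once in *Ifitm3*, at a site that overlaps its second ISRE core, and in none of the *Ifitm1*, *Ifitm2* or *Ifitm10* windows. Among all 32851 windows, 3.44% held an ISRE core and 8.30% a GAS match. Of 48 interferon-stimulated genes with a window, 26 (54.2%) held an ISRE core, against 3.99% of all genes with a window. A match is a description of the letters in a window and was not tested as a binding site.

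The coding sequences of the clustered genes are alike in part, and the effect of this on the counts was not tested. *Ifitm2* and *Ifitm3* were identical in 77.4% of aligned coding positions, *Ifitm1* and *Ifitm3* in 66.7% and *Ifitm1* and *Ifitm2* in 63.9%. The longest identical stretches are shown, since reads within them cannot be placed by sequence alone. Capitals mark the 40 bases that all 3 genes share, and the sequences are from the GENCODE M21 transcripts on GRCm38. The first, of 69 bases, lies in an exon of *Ifitm2* at chr7:140955718-140955786 and in an exon of *Ifitm3* at chr7:141010445-141010513. The second, of 64 bases, lies in an exon of *Ifitm1* at chr7:140968351-140968414 and in an exon of *Ifitm3* at chr7:141010421-141010484.
Ifitm2 and Ifitm3: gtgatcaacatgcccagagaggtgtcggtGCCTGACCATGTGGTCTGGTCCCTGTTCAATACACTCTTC
Ifitm1 and Ifitm3: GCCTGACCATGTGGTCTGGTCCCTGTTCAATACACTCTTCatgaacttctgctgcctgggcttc

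Of the 50-base words in the annotated transcripts, 5.02% of those of *Ifitm1*, 10.0% of *Ifitm3* and 3.51% of *Ifitm10* also occurred in another gene. Of the 53 such words of *Ifitm1*, 39 were found in Gm7676 and 15 in *Ifitm3*. For *Ifitm2* the share was 48.5%, mostly words shared with the read-through gene Gm45717 and with pseudogenes not analysed here, and 3.30% when only genes listed in the files were considered. The treatment of reads with several matches is not given in the sources used here, so the split of reads between *Ifitm2* and those copies is uncertain.

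Each library held 14034479 to 15866216 counts. A gene listed at 0 may still have had an expected level of up to 3 counts, equal to 0.189 to 0.214 CPM (counts scaled to the library total). Such floors cover counting error only. *Scd1* was listed with 4272, 3074 and 3761 counts in the WT libraries and with 30, 36 and 20 in the *Scd-1*-/- libraries, as the labels say (log2 fold change -7.04, SE 0.278, Benjamini-Hochberg adjusted p = 0.00011, edgeR quasi-likelihood test). The 7 CD8 T cell markers were all expressed, with a summed 2089 to 2677 FPKM (fragments per kilobase of transcript, scaled to the library total) per library. Their sums overlapped between the genotypes, but Cd8a did not, at 43.2, 47.6 and 47.1 FPKM in WT and 36.6, 27.9 and 33.7 in *Scd-1*-/-, and Cd8b1 measured 275 to 330 FPKM in WT and 299, 202 and 215 in *Scd-1*-/-. The summed markers of 4 other cell types separated the genotypes. Natural killer cell markers summed to 0.567 to 1.27 FPKM in WT and 2.17 to 12.1 in *Scd-1*-/-, mainly through Klrb1c, and WT replicate 1 had the lowest sum. Myeloid markers, none of which averaged 1 FPKM, summed to 0.374 to 1.21 FPKM in WT and 1.94 to 2.74 in *Scd-1*-/-, mainly through Cd14, with Mpo, Adgre1, C1qa, Marco, S100a9 and Elane at 0. B cell markers summed to 9.44 to 10.9 FPKM in WT and 3.15 to 8.05 in *Scd-1*-/-, nearly all from Cd79b, with Ms4a1, Fcer2a and Pax5 at 0. Markers of stroma and endothelium summed to 7.30 to 7.48 FPKM in WT and 4.15 to 5.28 in *Scd-1*-/-, nearly all from Pecam1, with Cdh5, Pdgfra and Col3a1 at 0. The sums for CD4 T cells, erythroid cells and platelets overlapped between the genotypes. The part of these cells in the results below was not tested, and in bulk RNA fewer cells of a type and less RNA per cell cannot be told apart.

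By the deposited FPKM *Ifitm2* was the most abundant member in every library, and *Ifitm1* came next. In counts, which are not scaled by gene length, *Ifitm1* led *Ifitm2* in WT replicate 1 and in every *Scd-1*-/- library. All 4 genes had a higher mean in *Scd-1*-/- than in WT cells, and the WT and *Scd-1*-/- libraries were separate for *Ifitm1*, *Ifitm2* and *Ifitm10* but overlapped for *Ifitm3*. The mean FPKM ratios were 3.37 for *Ifitm1*, 1.81 for *Ifitm2*, 1.40 for *Ifitm3* and 3.45 for *Ifitm10*, the last at about 1 FPKM or less.

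**Figure D1:**
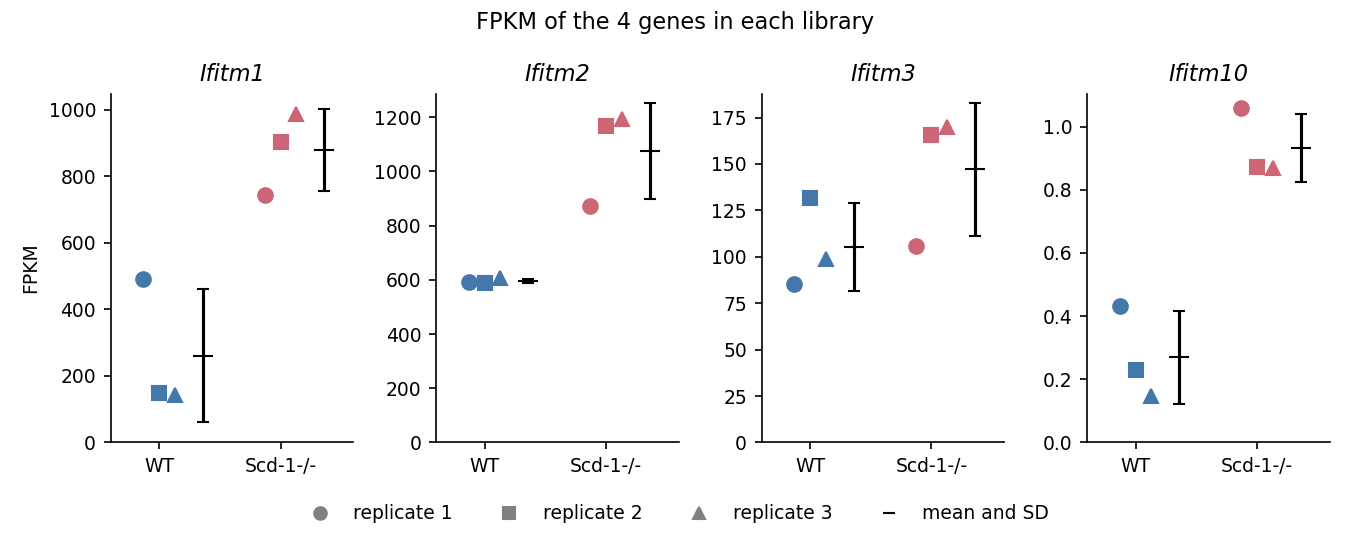
FPKM of *Ifitm1*, *Ifitm2*, *Ifitm3* and *Ifitm10* (vertical axes from 0, one scale per gene) in the 3 WT and 3 *Scd-1*-/- libraries, with a marker shape per replicate number and the mean ± SD at the side. The WT library of replicate 1 stands at 491 FPKM for *Ifitm1*, against 150 and 142 in the other WT libraries, and does not stand apart for *Ifitm2*.

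*Ifitm1*, whose product acts largely at the cell surface, measured 491, 150 and 142 FPKM in WT replicates 1, 2 and 3 and 745, 902 and 988 FPKM in *Scd-1*-/- replicates 1, 2 and 3. The underlying counts were 9721, 2740 and 2631 in WT and 15131, 16612 and 20457 in *Scd-1*-/-. All *Scd-1*-/- libraries lay above all WT libraries, but the WT library of replicate 1 was closer to the *Scd-1*-/- range than to the other WT libraries. The means were 261 ± 199 FPKM in WT and 878 ± 123 in *Scd-1*-/- (SD, n = 3 per genotype), which gave a fitted log2 fold change of 1.76 (SE 0.483). Between libraries of the same replicate number the log2 ratios were 0.60, 2.59 and 2.80. Without the WT library of replicate 1 the log2 fold change was 2.63, and with replicates 2 and 3 of both genotypes alone it was 2.73.

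*Ifitm2*, a close relative of *Ifitm3*, measured 593, 590 and 605 FPKM in WT and 872, 1166 and 1192 FPKM in *Scd-1*-/-. The counts were 5643, 5191 and 5400 in WT and 8517, 10316 and 11858 in *Scd-1*-/-. The WT libraries were nearly level, with a coefficient of variation of 1.37%, and the lowest *Scd-1*-/- library was replicate 1. The means were 596 ± 8.17 FPKM in WT and 1077 ± 178 in *Scd-1*-/-, a log2 fold change of 0.88 (SE 0.145). The same-number log2 ratios were 0.56, 0.98 and 0.98. Of the members *Ifitm2* thus had the smallest standard error, although its fold change was under that of *Ifitm1*.

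*Ifitm3*, the member best studied as an antiviral factor, was expressed at a lower level than *Ifitm1* and *Ifitm2*. It measured 85.3, 131 and 98.6 FPKM in WT and 106, 166 and 170 FPKM in *Scd-1*-/-. The groups overlapped, since the *Scd-1*-/- library of replicate 1 lay below the WT library of replicate 2. The means were 105 ± 23.8 FPKM in WT and 147 ± 35.8 in *Scd-1*-/-, a log2 fold change of 0.51 (SE 0.234). Its same-number log2 ratios were 0.31, 0.33 and 0.78, so each *Scd-1*-/- library was above the WT library of its own number. The counts behind these values were 877, 1251 and 951 in WT and 1118, 1584 and 1827 in *Scd-1*-/-.

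*Ifitm10* was expressed at a far lower level than the clustered genes. It measured 0.433, 0.231 and 0.147 FPKM in WT and 1.06, 0.871 and 0.870 FPKM in *Scd-1*-/-, from 69, 34 and 22 counts and from 173, 129 and 145 counts. The groups did not overlap. The means were 0.270 ± 0.147 and 0.933 ± 0.108 FPKM and the log2 fold change was 1.79 (SE 0.384). Its mean over all libraries, 0.602 FPKM, was under the minimum of 1 FPKM used for the other genes, so this value came from a fit without that minimum (17192 genes). The deposited FPKM imply a length of 10500 bases for *Ifitm10*, against 4789 bases of merged exons in the annotation used here. Its level relative to the other members is therefore uncertain by about that ratio, while the comparison between genotypes is not touched by it. For *Ifitm1* the implied and annotated lengths were 1305 and 1094 bases, and for *Ifitm2* they were 627 and 655 bases.

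In the order of deposited FPKM, *Ifitm2* led *Ifitm1* in both genotypes, and in *Scd-1*-/- cells the ranges of the pair overlapped. Since the lengths implied by these FPKM differ from the annotated ones for both genes, the order of *Ifitm1* and *Ifitm2* is uncertain. In WT cells the 590 to 605 FPKM of *Ifitm2* lay above the 142 to 491 FPKM of *Ifitm1*, which in turn lay just above the 85.3 to 131 FPKM of *Ifitm3*. Among all genes of a library ranked by FPKM, *Ifitm1* stood at 107, 352 and 364 in WT and at 81, 65 and 61 in *Scd-1*-/-. *Ifitm2* stood at 88, 88 and 81 in WT and at 67, 43 and 44 in *Scd-1*-/-. *Ifitm3* stood at 619, 400 and 548, and then at 487, 311 and 316. *Ifitm1* and *Ifitm2* were thus among the more abundant transcripts of these cells.

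The balance between members also differed between libraries, and this is a measure within a library that does not depend on its depth. *Ifitm1* made up 42.0%, 17.2% and 16.8% of the summed FPKM of the 4 genes in WT replicates 1, 2 and 3, and 43.2%, 40.4% and 42.0% in the *Scd-1*-/- libraries. The ratio of *Ifitm2* to *Ifitm1* was 1.21 in WT replicate 1, 3.94 and 4.27 in WT replicates 2 and 3, and 1.17, 1.29 and 1.21 in *Scd-1*-/-. In this balance the WT library of replicate 1 lay within the *Scd-1*-/- range and apart from the other WT libraries. The summed FPKM of the 4 genes did not show this, at 1170, 871 and 846 in WT and 1724, 2235 and 2351 in *Scd-1*-/-.

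**Figure D2:**
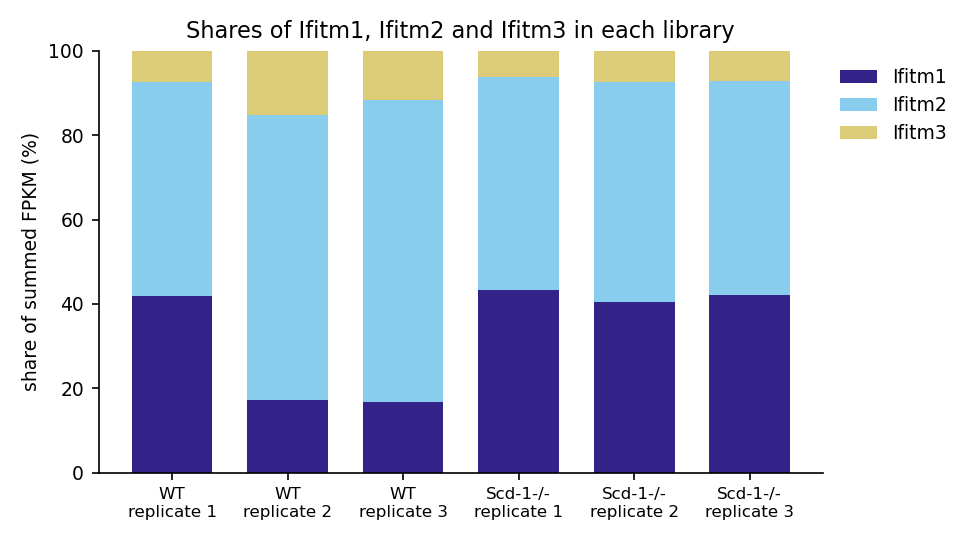
Share of *Ifitm1*, *Ifitm2* and *Ifitm3* in the summed FPKM of the 4 genes (vertical axis, percent) in each library. *Ifitm10*, at under 0.1% of the sum, is not drawn. *Ifitm1* takes 40.4% to 43.2% in the *Scd-1*-/- libraries and in WT replicate 1 takes 42.0%, against 17.2% and 16.8% in the other WT libraries.

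The WT library of replicate 1 lay far from the mean of the other WT libraries for *Ifitm1* and not for *Ifitm2* or *Ifitm3*. On the log2 CPM scale the difference was 1.80 for *Ifitm1*, and 86 of 9627 genes (0.893%) were at least as far above the other WT libraries. It was 0.04 for *Ifitm2* and -0.37 for *Ifitm3*. The *Scd-1*-/- library of replicate 1 was lower than the other *Scd-1*-/- libraries for all 3 genes, with log2 differences of -0.33, -0.43 and -0.65. For *Ifitm1* both libraries numbered 1 were thus displaced toward each other, and their log2 ratio, 0.60, was its smallest.

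Against the thresholds of the study, an absolute log2 fold change of at least 1 and an unadjusted p under 0.001, 1 of the 4 genes passed in edgeR, *Ifitm10*, and 0 had an adjusted p under 0.05, where *Ifitm10* was taken from the fit without an FPKM minimum and the others from the fit with it. Without that minimum for any gene, 1 had an adjusted p under 0.05, *Ifitm2*. *Ifitm10* passed the thresholds in neither limma fit, nor when replicate 2 or 3 of either genotype was left out, where 0 members passed. Without WT replicate 1 or without *Scd-1*-/- replicate 1, 2 members passed, against 1.49% and 1.69% of all genes, and with replicates 2 and 3 alone 3 passed, against 3.83%. The background was 0.738% of 9627 genes past these thresholds (0.861% of the 17192 genes with a count) and 0.114% (0.489% of the 17192) past the adjusted p. With the replicate number as a block, the thresholds were passed by 1 member and the adjusted p by 3, against 1.91% and 4.70% of all genes. With DESeq2 these counts were 2 and 3, against 1.67% and 2.76%. The values that chose the genes are the values tested here, so nothing is read from these counts. A log2 fold change at least as high as that of *Ifitm1* was found in 59 of the 9627 genes (0.613%), of *Ifitm2* in 240 (2.49%) and of *Ifitm3* in 639 (6.64%), and one at least as high as that of *Ifitm10* in 1386 of the 17192 (8.06%). Separate groups with *Scd-1*-/- above WT, as seen for *Ifitm1*, *Ifitm2* and *Ifitm10*, were found in 7.67% of these genes and in 6.31% of the 17192.

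**Figure D3:**
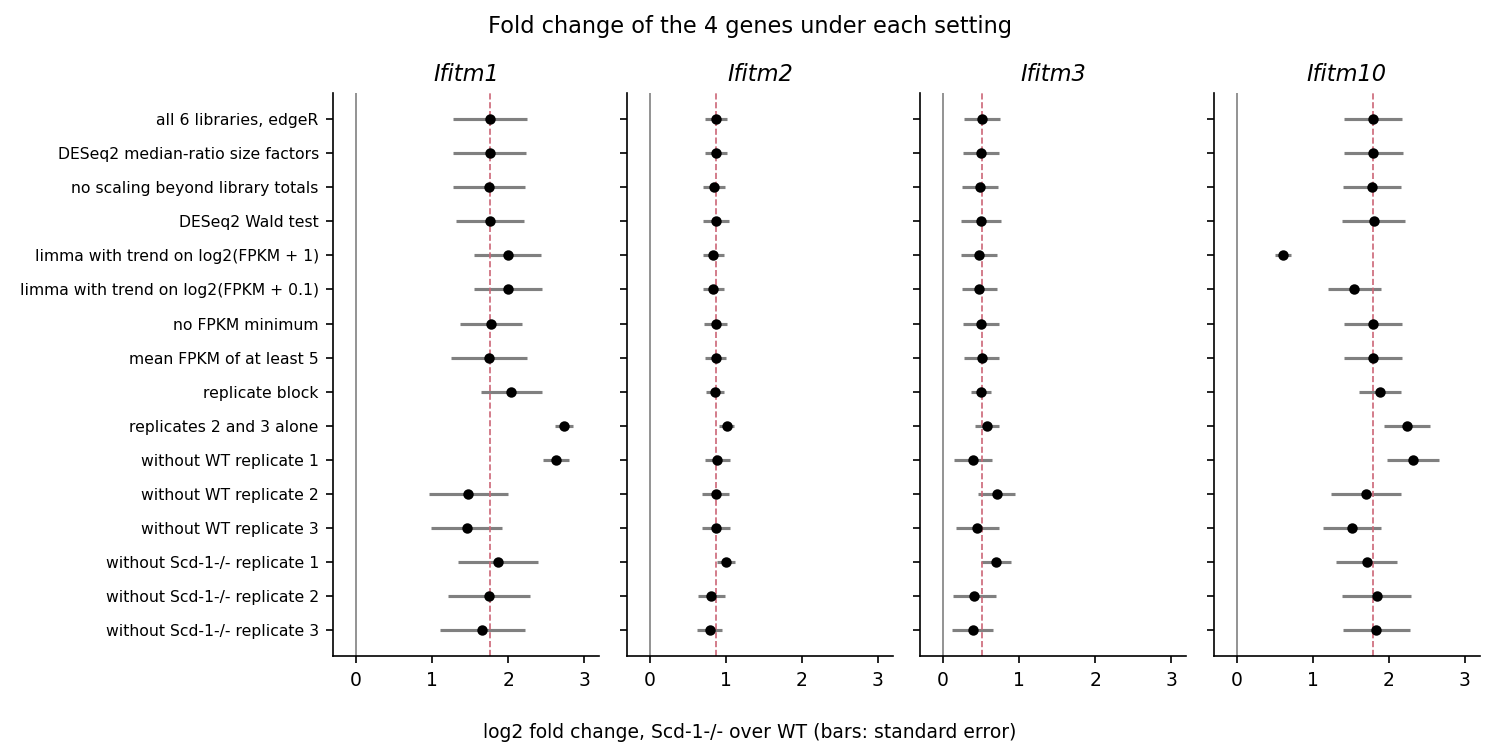
Log2 fold change of each gene, *Scd-1*-/- over WT (horizontal axis, bars are standard errors), in the fit to all 6 libraries and under 15 alternatives (vertical axis), with the dashed line at the value from all 6 libraries. All points are above 0, and *Ifitm1* moves furthest to the right without the WT library of replicate 1 (2.63) and with replicates 2 and 3 alone (2.73).

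The direction was the same for all 4 genes under all 15 alternatives. Leaving out each library in turn gave log2 fold changes of 1.45 to 2.63 for *Ifitm1*, 0.79 to 1.00 for *Ifitm2*, 0.39 to 0.70 for *Ifitm3* and 1.52 to 2.32 for *Ifitm10*. *Ifitm2* moved least and *Ifitm1* most, the latter through the WT library of replicate 1. With the replicate block the 4 values were 2.04, 0.86, 0.50 and 1.89.

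The genes with the library-to-library profile most like each member were found by the root mean square difference of log2 CPM over the 6 libraries, after removing each gene's mean. Nearest to *Ifitm1* were Gm5861, at a difference of 0.210, then Klre1, Cd244, Gm5152 and I830127L07Rik, where the median of all 9626 other genes was 1.21. Klre1 and Cd244 encode receptors of natural killer and cytotoxic cells. *Ifitm2* ranked 285 by this measure, at 0.827, and *Ifitm3* ranked 1658, at 1.06, both nearer to *Ifitm1* than the median gene but not among its 5 nearest. In the other direction *Ifitm1* ranked 8909 of 9626 from *Ifitm2*, where the median difference was 0.514, and 9358 from *Ifitm3*, where it was 0.441.

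Nearest to *Ifitm2* was Gzmb, at 0.0588 against a median of 0.514. Gzmb encodes granzyme B, a protease of cytotoxic granules, and measured 2496, 2428 and 2668 FPKM in WT and 3509, 4955 and 5416 in *Scd-1*-/-. Zdhhc2, Capn2, Ugcg and Tmem40 followed, and *Ifitm3* ranked 298. Nearest to *Ifitm3* was Ryk, at 0.0943 against a median of 0.441, followed by Pim1, a kinase induced by cytokines through STAT factors, Osm, Ap4s1 and Rap2a. These are descriptions over 6 libraries that share their grouping, and nothing about function follows from them.

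**Figure D4:**
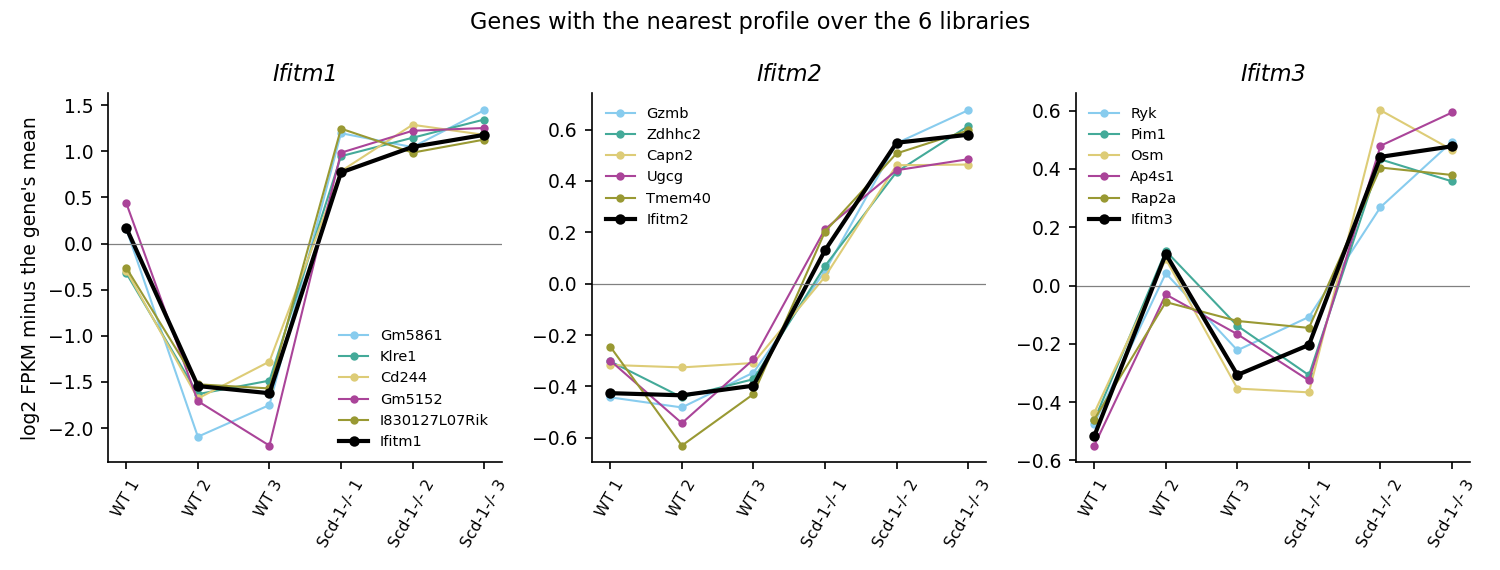
Log2 FPKM minus each gene's mean (vertical axis) over the 6 libraries (horizontal axis, WT then *Scd-1*-/-) for *Ifitm1*, *Ifitm2* and *Ifitm3* in black and the 5 genes nearest to each in colour, with lines joining the values of a gene. *Ifitm1* and its nearest genes are higher in WT replicate 1 than in WT replicates 2 and 3, while *Ifitm2* is level across the WT libraries.

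The other members of the CD225 family were nearly silent. Of 11 gene symbols named, 10 were in the files, 7 had a count and 1 averaged at least 1 FPKM. That gene was *Prrt1*, which encodes a protein associated with glutamate receptors in neurons, at 1.21 ± 0.775 FPKM in WT and 1.42 ± 0.524 in *Scd-1*-/- (log2 fold change 0.24, SE 0.499). *Ifitm5*, a gene of bone-forming cells that adjoins *Ifitm2*, averaged 0.639 ± 0.558 and 1.27 ± 1.01 FPKM. *Ifitm6*, which adjoins *Ifitm3*, averaged 0.0433 and 0.0437 FPKM, and *Ifitm7* 0.0504 and 0.134. No gene of this list passed the thresholds of the study or an adjusted p under 0.05 in edgeR or in DESeq2, and 0 had an unadjusted p under 0.05 in edgeR.

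Interferon ligands were represented by *Ifng*, the gene of interferon gamma. Of 21 ligand genes in the files, 18 had no count in any library and 2 averaged under 1 FPKM. *Ifng* measured 17.2, 3.13 and 2.68 FPKM in WT and 30.9, 11.6 and 11.7 FPKM in *Scd-1*-/-. The libraries numbered 1 were the highest of both genotypes, and the WT library of replicate 1 lay above *Scd-1*-/- replicates 2 and 3. The log2 fold change was 1.24 (SE 0.759, adjusted p = 0.650 by edgeR), and 1.57 with the replicate block, where *Ifng* passed the thresholds of the study (adjusted p = 0.0232 by edgeR). It was 2.67 without the WT library of replicate 1 and 2.04 with replicates 2 and 3 alone.

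Most measured genes for the receptors and signalling proteins through which interferons act did not share the direction of the 4 genes. Of 21 genes, 20 averaged at least 1 FPKM, and their median log2 fold change was -0.18, with 14 negative and 6 positive, where the median of all 9627 genes was -0.00051. By edgeR 0 of them passed the thresholds of the study or an adjusted p under 0.05, and 6 had an unadjusted p under 0.05, all lower in *Scd-1*-/-, where 4.68% of all genes were lower and 5.42% higher at that p. DESeq2 gave 2 by either rule, both lower, against 0.592% and 1.09% of all genes. With the replicate block 2 passed the thresholds and 4 an adjusted p under 0.05, and all of these fell, against 0.717% and 2.06% of all genes that were lower by these rules. Without the WT library of replicate 1, 12 were negative and 8 positive, with a median of -0.22.

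*Ifngr2*, the signal-transducing chain of the interferon gamma receptor, measured 1.15, 3.21 and 2.61 FPKM in WT and 0.275, 0.364 and 0.630 in *Scd-1*-/- (log2 fold change -2.42, SE 0.476, adjusted p = 0.120 by edgeR). Its adjusted p was 0.00890 by edgeR with the replicate block. It was lower in every *Scd-1*-/- library than in every WT library. *Irf1* and *Irf9*, transcription factors of the interferon response, had log2 fold changes of -0.76 and -0.60. Their adjusted p-values were 0.278 and 0.488 by edgeR, and 0.0188 and 0.0441 by edgeR with the replicate block. The most abundant genes of the list, *Ifngr1*, *Socs1* and *Jak1*, had log2 fold changes of 0.36, -0.22 and 0.15 and passed no threshold in edgeR with or without the block.

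Other interferon-stimulated genes lay mostly on the opposite side of 0 from the 4 genes. The list named 64 genes, of which 65 entries were in the files because *Gbp6* has 2 identifiers, 63 had a count and 49 averaged at least 1 FPKM. Of these 49, 44 had a negative and 5 a positive log2 fold change, with a median of -0.31, where 50.1% of all 9627 genes were negative. In 15 of them all *Scd-1*-/- libraries were below all WT libraries and in 1 all were above, against 8.32% and 7.67% of all genes. By edgeR 0 passed the thresholds of the study and 0 an adjusted p under 0.05, while 13 lower and 1 higher had an unadjusted p under 0.05, against 4.68% and 5.42% of all genes. DESeq2 gave 4 past either rule, all lower, against 0.592% and 1.09% of all genes. Without the WT library of replicate 1, 39 were negative and 10 positive, with a median of -0.37.

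With the replicate block 6 of the interferon-stimulated genes passed the thresholds and 12 an adjusted p under 0.05, of which 11 fell and 1 rose. The thresholds were passed by 5 lower and 1 higher gene, against 0.717% and 1.19% of all genes, and the shares of all genes past the adjusted p were 2.06% lower and 2.64% higher. *Gbp2*, a guanylate-binding GTPase, measured 32.7, 77.7 and 81.8 FPKM in WT and 16.1, 23.9 and 25.7 in *Scd-1*-/- (log2 fold change -1.52, SE 0.344, adjusted p = 0.176 by edgeR and 0.00427 with the block). *Iigp1*, an immunity-related GTPase, measured 2.89, 7.44 and 9.42 FPKM and then 0.206, 1.59 and 1.33 (log2 fold change -2.63, SE 0.689, adjusted p = 0.241 by edgeR and 0.00427 with the block). In both, the WT library of replicate 1 was the lowest of the WT libraries, whereas it was the highest for *Ifitm1*.

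The others that fell with the block were the immunity-related GTPases *Igtp*, *Irgm1*, *Irgm2* and *Ifi47*, the guanylate-binding genes *Gbp4* and both entries of *Gbp6*, the peptide transporter *Tap1* and *Ifi27l2a*. *Ifi27l2a* was among the most abundant of the list and measured 372, 248 and 200 FPKM in WT and 180, 49.0 and 55.3 in *Scd-1*-/- (log2 fold change -1.51, SE 0.518). *Psmb8*, an immunoproteasome subunit, and *Bst2*, which tethers virus particles to the cell, were as abundant but had log2 fold changes of -0.06 and -0.25. *Mx1*, an antiviral GTPase, was the only one that rose with the block, from 2.83, 0.881 and 1.47 FPKM in WT to 4.45, 3.59 and 3.98 in *Scd-1*-/- (log2 fold change 1.23, SE 0.401, adjusted p = 0.361 by edgeR and 0.0326 with the block). Like *Ifitm1*, *Mx1* was highest among the WT libraries in replicate 1.

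**Figure D5:**
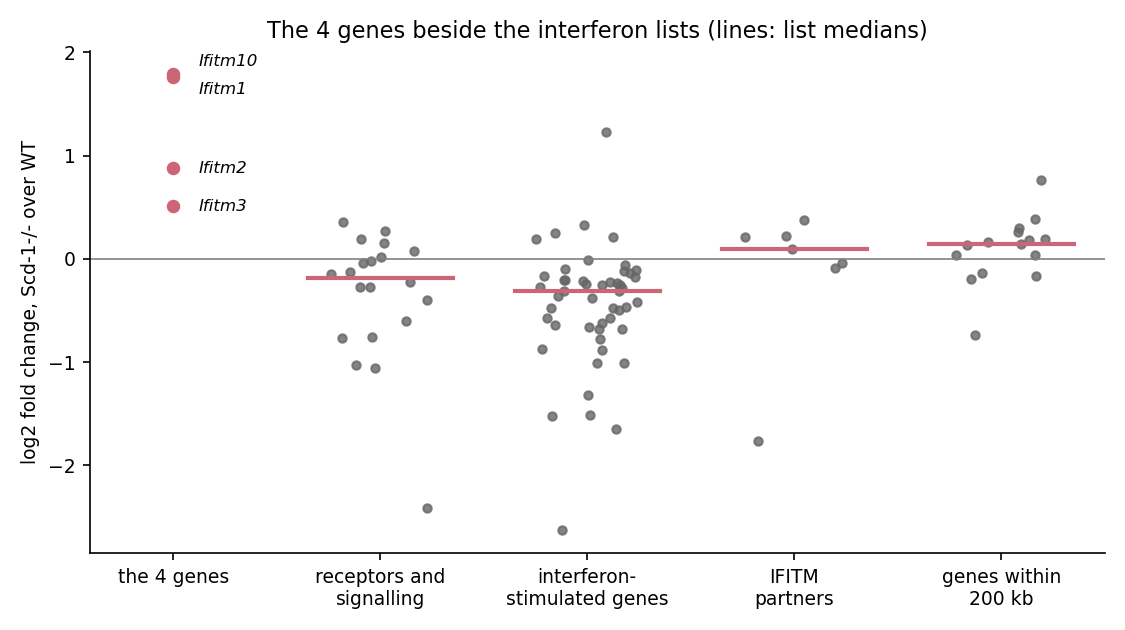
Log2 fold change, *Scd-1*-/- over WT (vertical axis), of the 4 genes and of the genes that averaged at least 1 FPKM in 4 lists, with a point per gene and a bar at each list's median. The 4 genes lie between 0.51 and 1.79, while the interferon-stimulated genes have a median of -0.31 and the receptors and signalling genes one of -0.18.

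Among 9 genes whose products are known to bind or process IFITM proteins, 7 averaged at least 1 FPKM and 1 passed the thresholds of the study, against 0.738% of all genes. That gene was *Cd81*, a tetraspanin of the cell surface that forms a complex with IFITM1. *Cd81* measured 5.43, 11.1 and 11.8 FPKM in WT and 1.99, 3.05 and 3.09 in *Scd-1*-/- (log2 fold change -1.77, SE 0.326, adjusted p = 0.0988 by edgeR). It was lower in every *Scd-1*-/- library, and its adjusted p was 0.00329 by edgeR with the block, where 2.06% of all genes were lower at an adjusted p under 0.05. *Cd81* no longer passed the thresholds when any one library other than WT replicate 1 was left out. *Vapa*, *Zmpste24* and *Abhd16a* had log2 fold changes of 0.22, 0.21 and -0.04 and passed no threshold.

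The chromosomal neighbourhood was read to see whether other genes near the members moved with them. Of 45 genes of the files within 200 kb of a member, 15 averaged at least 1 FPKM, with 11 positive and 4 negative log2 fold changes and a median of 0.14. By edgeR 0 of these 15 passed the thresholds or an adjusted p under 0.05, and 1 had an unadjusted p under 0.05, higher in *Scd-1*-/-, against 5.42% of all genes. By DESeq2 0 passed the thresholds and 1 the adjusted p, against 2.76% of all genes. Within the cluster the nearest expressed gene was *Pgghg* (Athl1 in the files), a glucosidase gene 7173 bases from *Ifitm2*, at 5.18 ± 1.32 FPKM in WT and 6.28 ± 1.74 in *Scd-1*-/-, with overlapping groups. The gene that passed was *Ctsd*, which encodes the lysosomal protease cathepsin D and lies 2158 bases beyond *Ifitm10*, on the same strand. An annotated gene of that strand, Gm49369, overlaps *Ctsd* and shares 215 exonic bases with *Ifitm10*. Whether transcripts across this region add to the *Ifitm10* counts was not tested. *Ctsd* measured 263, 233 and 213 FPKM in WT and 351, 432 and 408 in *Scd-1*-/- (log2 fold change 0.77, SE 0.140). Its adjusted p was 0.0960 by edgeR and 0.0221 with the replicate block, where it rose.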

How the data were processed

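RNA-seq was measured in 3 WT and 3 *Scd-1*-/- libraries, grouped by the genotype in the labels. The authors deposited raw counts per gene, whole numbers without normalization, and FPKM values per gene and library. Per the labels, reads were processed with HISAT2 and StringTie 1.3.0 on GRCm38, and the study's methods name edgeR. The labels describe poly(A) RNA from Trizol and a VAHTS kit, whereas the study's methods describe a stranded total RNA kit, so the strand setting is uncertain. Length implied by counts over FPKM differed between libraries by at most 8.557e-06 of its value over 8274 genes, so the deposited FPKM carry no TMM factor.

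The 9627 genes that averaged 1 FPKM or more were fitted with edgeR 4.0.16 (TMM, quasi-likelihood test) in R 4.3.3, genotype as the only term, with Benjamini-Hochberg adjustment over all genes fitted. *Ifitm10* and other genes under this minimum were read from the fit to all 17192 genes with a count. Calls used the study's thresholds (absolute log2 fold change of at least 1, p under 0.001) or an adjusted p under 0.05. Alternatives were DESeq2 1.42.0, limma 3.58.1 on log2(FPKM + 1) and log2(FPKM + 0.1), other scalings and filters, the replicate block and left-out libraries. The fits were tested on simulated data. Libraries were compared by chi-square, and the closest pair gave 12.2 per degree of freedom, well above sampling noise, so no library was counted as a repeat. Same-numbered libraries correlated in their deviations from the group means (r = 0.595, 0.306 and 0.470 for numbers 1, 2 and 3), all of them positive, and the numbers were taken to pair them. Of the unlike-numbered pairs, WT 3 with *Scd-1*-/- 2 gave 0.380 and WT 2 with *Scd-1*-/- 3 gave 0.180, while those with a library numbered 1 gave -0.560 to -0.316, so the correlations set replicate 1 apart but do not separate 2 from 3. What a number stands for is not stated in the labels, and the pairing comes from these correlations alone.

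Of the gene identifiers, 34267 of 34745 (98.62%) matched GENCODE M21. The members and all lists were chosen with earlier results of these data known. Genes were named by rule: the members, *Scd1*, every list gene past a threshold with or without the block, the 3 most abundant genes of each list, the nearest neighbours on the chromosome and the 5 genes nearest to each member in profile. *Ifitm7* and the cell type markers were named outside this rule. Values of some list genes are not reported here.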

Additional observations from a re-analysis of the deposited data

How the results depend on the processing

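The 4 log2 fold changes were positive under all 15 alternatives. The value of *Ifitm1* moved by more than the spread between replicates, to 2.73 with replicates 2 and 3 alone and to 2.63 without WT replicate 1 (1.45 to 2.63 over left-out libraries), and that of *Ifitm10* to 0.61 with limma on log2(FPKM + 1), a pseudocount above its mean FPKM. *Ifitm2* and *Ifitm3* kept within that spread. With the replicate block, the count past the study's thresholds was 184 in place of 71 over all genes, 6 in place of 0 for interferon-stimulated genes, 2 in place of 0 for receptors and signalling and 1 in place of 0 for ligands, and the count at an adjusted p under 0.05 was 452 in place of 11. The block changed no call of the CD225 relatives.

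Counts past the thresholds over all genes were 161 with DESeq2, 148 without an FPKM minimum, 43 at a mean of at least 5 FPKM and 369 with replicates 2 and 3 alone, and 25 to 163 over left-out libraries. Counts at an adjusted p under 0.05 were 266, 84, 18 and 1213 in the same order, 17 with limma on log2(FPKM + 1), and 2 to 182 over left-out libraries. Among left-out libraries, the most genes passed the thresholds without *Scd-1*-/- or WT replicate 1 (163 and 143). For receptors and signalling the count was 2 with DESeq2, 1 without a minimum, 1 at 5 FPKM, 3 with replicates 2 and 3 alone and 0 to 2 over left-out libraries. For interferon-stimulated genes it was 4, 1 without a minimum, 7 with replicates 2 and 3 alone and 0 to 2. Ligands gave 1 with replicates 2 and 3 alone. Partners gave 0 in both limma fits and 0 to 1 over left-out libraries. Beyond the constructions named, the cause was not tested. With 3 libraries per genotype and low counts for *Ifitm10*, differences within the stated errors were not detectable.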
